A study of Mus musculus with 1012 samples.

Results

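The NR4A family comprises 3 genes of the 30452 rows of the count table, Nr4a1 (Nur77), Nr4a2 (Nurr1) and Nr4a3 (NOR1). They were chosen by name, with earlier results of these data known. They were followed in 1012 mouse libraries, each from 1 cell: 296 Live-seq libraries, made from a cytoplasmic biopsy drawn out of a living cell with a hollow force-controlled probe, 554 scRNA-seq libraries of whole cells, and 162 libraries of whole IBA cells that had or had not been sampled before. RAW cells are a macrophage-like line, here mostly RAW-G9, a single clone with mCherry under the Tnf promoter and an EGFP-Rela fusion, while batch 5Reseq holds wild-type RAW264.7 instead. RAW_LPS cells received lipopolysaccharide (LPS, 40 ng/ul in the series' design text but a far lower concentration in the study's methods, which place it 4 to 5 h before Live-seq sampling) and RAW_Mock cells did not. IBA is an immortalised brown preadipocyte line. ASPC_Pre are primary adipose stem and progenitor cells from subcutaneous fat of C57BL/6J mice, and ASPC_Post are the same kind of cells 2 days into an adipogenic cocktail of dexamethasone, IBMX, rosiglitazone and insulin. For scRNA-seq, cells were detached with trypsin, kept on ice and sorted, while the 162 IBA cells were gathered on ice and picked by dilution. Biopsies came from attached cells at room temperature, so technique and handling cannot be told apart.

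NR4A proteins are nuclear receptors for which no classical hormone ligand is established, and their activity is set largely by how much of them a cell makes. They are immediate-early genes: growth factors, depolarisation, cAMP signalling and inflammatory signals switch them on quickly, and their messages are short-lived. In macrophages they are known as targets of toll-like receptor signalling, and in fat cell precursors cAMP-raising agents such as IBMX, a component of the cocktail, are known inducers. Levels below are in CPM, the usual per-depth scaling of counts, here over the counts kept in the summed cells of 1 state, technique and batch. A sum needed at least 3 cells.

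Nr4a1 (ENSMUSG00000023034) lies on chromosome 15 from 101254269 to 101274795 on the plus strand of GRCm38. Nr4a2 (ENSMUSG00000026826) lies on chromosome 2 from 57106830 to 57124003 on the minus strand. Nr4a3 (ENSMUSG00000028341) lies on chromosome 4 from 48045153 to 48086447 on the plus strand. No other annotated gene overlapped any of them, so reads counted without strand had no second gene to belong to. The 3 promoters share the letters TGACG, the core of the cAMP response element bound by CREB and ATF factors: each window of 250 bases before to 50 bases after the RefSeq start (GRCm38.p6) held 4 copies, counting both strands. At least 1 copy was found in 20.8% of all 32851 promoter windows of that length, and at least 4 copies in 76 windows, or 0.231%. The stretches before the RefSeq start that hold no annotated exon are printed 5′ to 3′ along each gene, with TGACG or its reverse complement in capitals, to show where these letters sit: chr15:101266596-101266845 (plus) for Nr4a1, chr2:57124004-57124253 (minus) for Nr4a2 and chr4:48045055-48045152 (plus) for Nr4a3. The Nr4a1 stretch lies within the annotated span of the gene, whose longer transcripts start further upstream. For Nr4a3 the remaining copy falls in an annotated exon and is not printed.
Nr4a1: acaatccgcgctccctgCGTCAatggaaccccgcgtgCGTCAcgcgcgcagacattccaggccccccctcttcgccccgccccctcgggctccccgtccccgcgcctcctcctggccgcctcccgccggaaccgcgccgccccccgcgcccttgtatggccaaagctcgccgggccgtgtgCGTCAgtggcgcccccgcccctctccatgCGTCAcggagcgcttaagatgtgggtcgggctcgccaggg
Nr4a2: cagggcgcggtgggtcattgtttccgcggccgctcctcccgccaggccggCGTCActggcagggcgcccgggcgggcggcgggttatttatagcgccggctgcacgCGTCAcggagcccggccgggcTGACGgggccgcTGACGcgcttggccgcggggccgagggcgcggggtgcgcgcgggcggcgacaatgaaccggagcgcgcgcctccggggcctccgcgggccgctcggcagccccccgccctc
Nr4a3: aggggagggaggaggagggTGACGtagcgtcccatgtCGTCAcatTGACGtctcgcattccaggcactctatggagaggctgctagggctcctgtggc

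The whole element TGACGTCA, which contains TGACG, was in none of the 3 windows and in 1.79% of all windows. The letters AAAGGTCA, to which NR4A proteins themselves bind, were in none of the 3 and in 1.51% of all. A match is a run of letters and was not tested as a binding site. The levels of the 3 genes across the cells follow.

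Libraries held 64547 to 1603790 counts in Live-seq and 41030 to 2671609 in scRNA-seq, with no 2 libraries alike in every count. Macrophage markers summed to 2935 CPM or more in every RAW sum and mesenchymal markers to 5.63 CPM or less, while IBA and ASPC sums had mesenchymal markers at 2614 CPM or more. The IBA sums also held 0.694 to 607 CPM of macrophage markers, and endothelial and lymphoid markers stayed at 47.6 and 1.17 CPM or less in every sum. Among Live-seq libraries of batch 8_8, the ASPC_Pre and RAW_LPS biopsies were thin in genes, with medians of 1636 and 1855 detected genes against 7948 and 7171 in whole cells of the same batch and state.

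**Figure D1:**
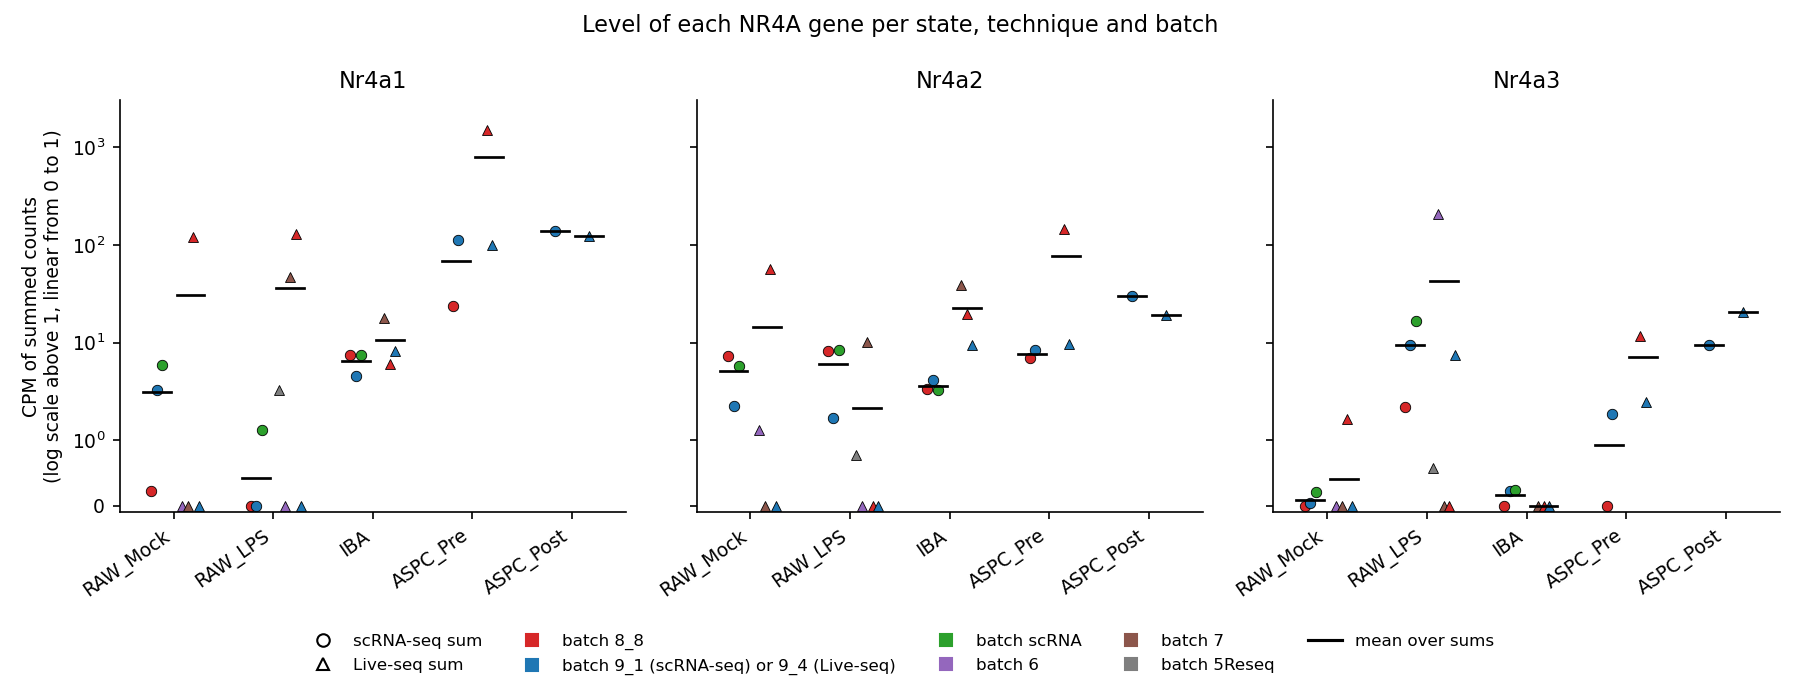
Level of Nr4a1, Nr4a2 and Nr4a3 in CPM (vertical axis, logarithmic above 1 and linear from 0 to 1) in each state (horizontal axis). Each circle is an scRNA-seq sum and each triangle a Live-seq sum of 1 batch, coloured by batch; bars are means over sums. Among whole cells Nr4a1 is highest in ASPCs, Nr4a3 is near 0 in every mock-treated whole RAW sum and above 2 CPM in every LPS-treated one, and Live-seq sums of 1 state spread from 0 to over 100 CPM.

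Nr4a3 was the member that rose with LPS in whole RAW cells. Its level in RAW_Mock was 0 CPM in batch 8_8, 0.0391 in batch 9_1 and 0.204 in batch scRNA. In RAW_LPS it was 2.18 CPM in batch 8_8, 9.45 in batch 9_1 and 16.5 in batch scRNA. Every treated sum lay above every mock sum, and the share of all genes that separate in this way was not counted. The fitted log2 fold change was 7.13 ± 1.09 (SE; 3 sums a state; edgeR quasi-likelihood test over all genes, adjusted p = 0.0235), in a comparison where 1.23% of the 13563 genes tested were called (FDR below 0.05 and more than 1 on the log2 scale). Within batch 9_1 the ratio was 241, with a counting interval of 43.0 to 9570 because the mock sum held 1 count, and within batch scRNA it was 81.1 (39.1 to 203). In batch 8_8 the mock sum held no count. The treated sum was 3.15 times the level that 3 counts would give in that mock sum, with all 9 of its counts in 1 cell. The size held without each batch in turn, at 6.61 to 8.29, but the call did not: the adjusted p was 0.0750 without batch 8_8, 0.129 without batch 9_1 and 0.201 without batch scRNA, where 0, 18 and 4 genes in all were called. Without the batch term the value was 6.52 (adjusted p = 0.107).

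More treated than mock cells held the Nr4a3 message. Only 1 of 46 mock cells of batch 9_1 and 1 of 95 of batch scRNA held a count, and none of 16 in batch 8_8, which allows a share of up to 20.6% (exact binomial). After LPS, 27 of 46 cells of batch 9_1 (58.7%, 43.2 to 73.0, exact binomial) and 58 of 88 of batch scRNA (65.9%, 55.03 to 75.68) held one. Batch 8_8 stood apart, with 1 of 15 cells (6.67%, 0.169 to 32.0), and its median depth of 287836 kept counts per cell compares with 321857 in batch scRNA. Over all batches the share was 57.7% against 1.27%, and when each cell was thinned to 50000 counts it was 32.3% against 0.319%. Among the cells with a count, no single cell carried the sums of batches 9_1 and scRNA: the highest cell gave 17.5% and 9.02% of their Nr4a3 counts.

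Nr4a1, the founding member and a marker of recent signalling in lymphocytes, was low in whole RAW cells and not called with LPS. Its level was 0.231, 3.29 and 5.94 CPM in RAW_Mock of batches 8_8, 9_1 and scRNA, and 0, 0 and 1.29 in RAW_LPS. In each batch the treated sum was the lower one, but in batch 8_8 this was 0 counts against 1. The groups overlapped across batches, and single cells made up most of the mock level: 182 of the 204 counts in batch scRNA and 64 of the 84 in batch 9_1 came from 1 cell each. The log2 fold change was −2.96 ± 1.15 (adjusted p = 0.280). It was −8.11 without batch scRNA, −1.87 without batch 9_1 and −1.11 with thinned cells, not called in any of them, and 6.37% of mock cells and 2.68% of treated cells held a count.

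Nr4a2, the member known from dopaminergic neurons, had overlapping levels with and without LPS. RAW_Mock sums were 7.39, 2.27 and 5.71 CPM and RAW_LPS sums 8.23, 1.68 and 8.34 CPM in the same order of batches. Batch 9_1 was lowest in both states. The log2 fold change was 0.34 ± 0.68 (adjusted p = 0.928), and a count was found in 21.7% of mock cells and 14.8% of treated cells. Per kilobase of exon, Nr4a3 took 58.4% of the family's level in RAW_LPS against 0.867% in RAW_Mock, Nr4a2 36.7% against 45.7%, and Nr4a1 4.90% against 53.4%, over all whole cells of each state. These shares pool the batches, and 1 cell gave 63.0% of the Nr4a1 counts of RAW_Mock. As means over the 3 sums, Nr4a2 was above Nr4a1 in RAW_Mock (1.26 and 0.899 CPM per kilobase), and Nr4a3 and Nr4a2 were close in RAW_LPS (1.57 and 1.50).

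**Figure D2:**
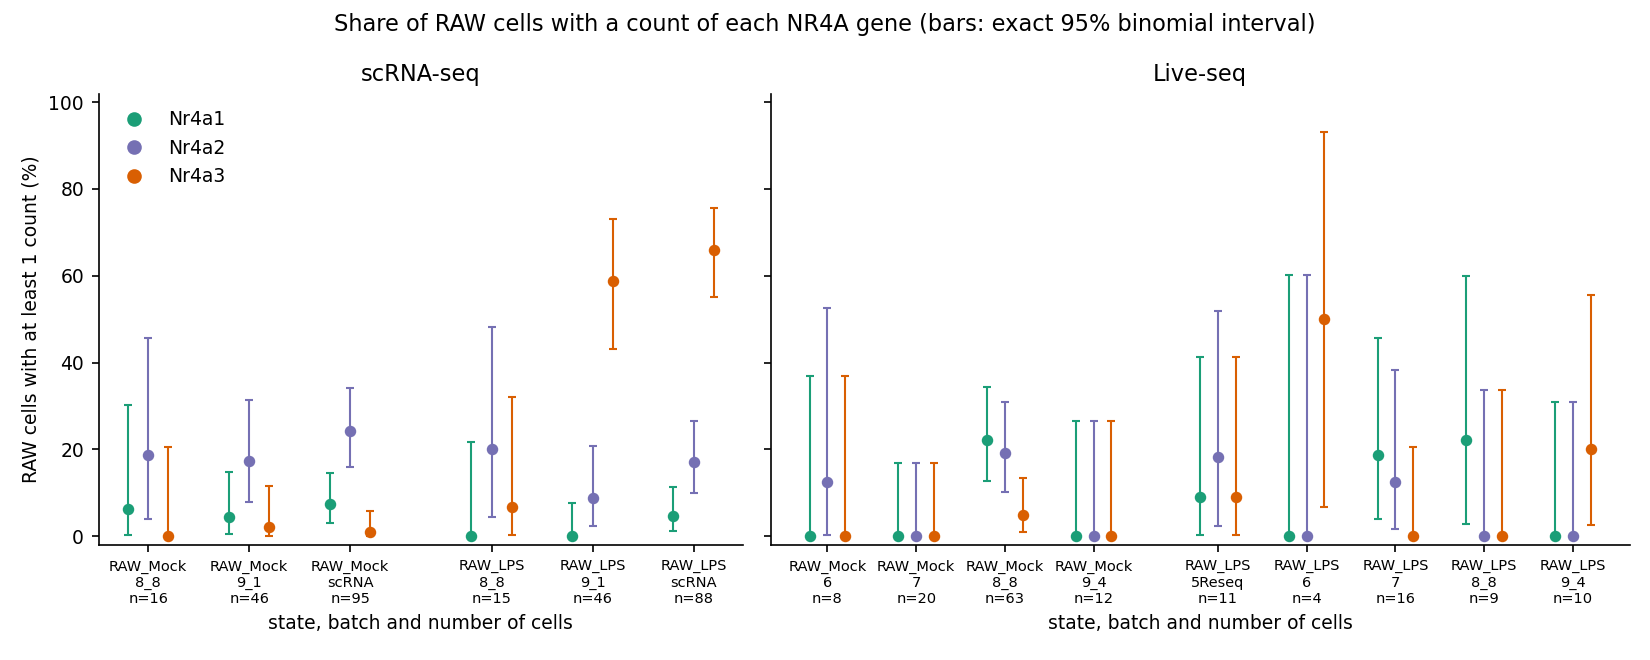
Percentage of RAW cells with at least 1 count of Nr4a1, Nr4a2 or Nr4a3 (vertical axis) in each state and batch (horizontal axis, with the number of cells n), for scRNA-seq on the left and Live-seq on the right; bars are exact 95% binomial intervals. In whole cells Nr4a3 goes from at most 2.17% to 58.7% and 65.9% in batches 9_1 and scRNA, but to 6.67% in batch 8_8; in Live-seq most batches hold few cells and wide intervals.

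Of the genes around the family, few passed the test with LPS, in which 1.23% of all genes were called. Among 24 of 26 other immediate-early genes that could be tested, 2 rose and none fell: Maff, a small Maf factor (log2 fold change 3.94 ± 0.75, adjusted p = 0.0460), and Gadd45b, a stress sensor (2.93 ± 0.49, 0.0318). The median of the list was 0.58, against −0.01 over all genes tested. Of 13 factors and coactivators known to act on NR4A promoters, Nfkb1 rose (1.71 ± 0.28, adjusted p = 0.0291) with a list median of 0.23. Of 7 tested cAMP-responsive genes, Pde4b, a cAMP phosphodiesterase, rose (2.86 ± 0.27, adjusted p = 0.00640) with a list median of 0.04. None of 6 tested partners and corepressors, such as the RXR genes, and none of 28 tested genes of other nuclear receptors was called in either direction, with medians of −0.66 and −0.04. The LPS response list itself had a median of 4.36, and 1 of its 12 genes, Nfkbia, the inhibitor of NF-κB, was called (2.23 ± 0.37, adjusted p = 0.0318).

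In Live-seq no member was called with LPS, nor was any gene in that comparison (0% of 13463 by edgeR, with 539 at an unadjusted p under 0.05 and 642 called by DESeq2). Nr4a3 was at 0 CPM in RAW_Mock of batches 6, 7 and 9_4 and at 1.66 in batch 8_8. In RAW_LPS it was at 206 CPM in batch 6, 7.46 in batch 9_4, 0.578 in wild-type cells of batch 5Reseq, and 0 in batches 7 and 8_8. The high value of batch 6 came from 2 of 4 cells and that of batch 9_4 from 2 of 10, 1 of which gave 34 of 36 counts. The fitted log2 fold change was 4.72 with a standard error of 3 (adjusted p = 1), and it ran from 0.61 without batch 9_4 to 9.04 without batch 8_8. It differed from that of whole cells by 2.06 ± 4.03 (scRNA-seq minus Live-seq, adjusted p = 1), a test in which 0% of 13563 genes were called, with 667 at an unadjusted p under 0.05 and 409 called by DESeq2.

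In mock-treated Live-seq RAW cells, nearly all of the Nr4a1 and Nr4a2 signal came from batch 8_8. Nr4a1 was at 122 CPM in RAW_Mock of batch 8_8, where 14 of 63 cells held it, and at 0 in batches 6, 7 and 9_4, where none of 8, 20 and 12 cells did. The single mock cell of batch 5Reseq held no count of any member. Nr4a2 was at 56.9 CPM in RAW_Mock of batch 8_8 (12 of 63 cells), 1.28 in batch 6 and 0 in batches 7 and 9_4. In the 14 mock biopsies of batch 8_8 with Nr4a1, macrophage markers summed to 426 to 31454 CPM and mesenchymal markers to 0 to 16.5, with 3 of their 10 genes counted at all, against 0 to 36.1 in the 49 biopsies without it. Endothelial markers were at 3.48 CPM or less and lymphoid markers at 0 in those 14 biopsies, and their median of 3324 detected genes compares with 3722 in the other 49. After LPS, Nr4a1 was at 130 CPM in batch 8_8 (98.9% of the counts in 1 cell), 47.4 in batch 7, 3.27 in batch 5Reseq and 0 in batches 6 and 9_4. Its log2 fold change with LPS was 2.03 ± 2.43 and that of Nr4a2 was −3.04 ± 3.49 (adjusted p = 1 for each), the latter turning to 2.999 without batch 8_8. The value of Nr4a1 was 0.07 without batch 7 and 9.53 without batch 8_8. Wild-type cells of batch 5Reseq had an Nr4a2 level of 0.770 CPM after LPS, inside the 0 to 10.1 CPM of RAW-G9, and line and batch cannot be told apart.

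Whole ASPCs were where Nr4a1 was highest. In ASPC_Pre it was at 23.6 CPM in batch 8_8 and 111.8 in batch 9_1. In IBA it was at 7.50, 4.58 and 7.51 CPM in batches 8_8, 9_1 and scRNA. Both ASPC sums lay above all IBA and RAW sums, but how many of all genes separate in this way was not counted. The difference from IBA was 3.92 ± 1.09 on the log2 scale (adjusted p = 0.0490), where 11.2% of genes were called, and it sat at the edge of the call: with the alternative size factors the adjusted p was 0.0503, with the left-out genes kept 0.0533, without batch 9_1 0.364, without batch scRNA 0.110 and without the batch term 0.0888. The difference from RAW_Mock was 5.54 ± 1.15 (adjusted p = 0.00468), where 40.0% of genes were called, and without batch 9_1 it was 5.02 (adjusted p = 0.0767). A count of Nr4a1 was found in 43 of 60 ASPC_Pre cells (71.7%, 58.6 to 82.6), 37 IBA cells (24.2%, 17.6 to 31.8) and 10 RAW_Mock cells (6.37%, 3.10 to 11.4). The intervals pool cells over batches and take each cell as independent, so they do not test a difference between states. At 50000 counts a cell these shares were 53.3%, 13.5% and 3.50%.

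In whole ASPC_Pre, Nr4a2 and Nr4a3 took 6.64% and 0.866% of the family's level per kilobase. Nr4a2 was at 7.05 and 8.43 CPM in the ASPC_Pre sums and at 3.34, 4.13 and 3.26 CPM in the IBA sums. Its difference from IBA was 1.55 ± 0.75 (adjusted p = 0.201) and from RAW_Mock 1.34 ± 0.79 (adjusted p = 0.206). Nr4a3 was at 0 CPM in ASPC_Pre of batch 8_8 and at 1.85 in batch 9_1, and at 0 to 0.248 CPM in IBA. It was called against RAW_Mock at 4.42 ± 1.18 (adjusted p = 0.0147) and not against IBA at 3.30 ± 1.06 (adjusted p = 0.0734; 0.0186 with the newer edgeR fit), and both rest on batch 9_1, without which they were −1.42 and −1.66. The call against RAW_Mock was also lost without batch scRNA (5.21, adjusted p = 0.0554) and without the batch term (3.61, adjusted p = 0.0639), while without batch 8_8 the difference from IBA was called (3.68, adjusted p = 0.0496). Between RAW_Mock and IBA, where 33.7% of genes were called, the log2 differences were −1.62 ± 1.01 for Nr4a1, 0.22 ± 0.69 for Nr4a2 and −1.12 ± 1.00 for Nr4a3 (adjusted p of 0.242, 0.841 and 0.420), with Nr4a2 and Nr4a3 changing sign when cells were thinned.

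Put in order of mean level over whole-cell sums, Nr4a1 ran from ASPC_Post (138 CPM, 1 sum) through ASPC_Pre (67.7 ± 62.4, SD, n = 2), IBA (6.53 ± 1.69, n = 3) and RAW_Mock (3.15 ± 2.86, n = 3) to RAW_LPS (0.429 ± 0.744, n = 3), and of the neighbours that a fit covers, ASPC_Pre and IBA were called. Nr4a2 ran from ASPC_Post (30.3 CPM) through ASPC_Pre (7.74 ± 0.97), RAW_LPS (6.09 ± 3.81) and RAW_Mock (5.12 ± 2.61) to IBA (3.58 ± 0.48), and below ASPC_Post no pair that was tested was called. Nr4a3 ran from ASPC_Post (9.52 CPM) and RAW_LPS (9.39 ± 7.18) through ASPC_Pre (0.925 ± 1.31) to IBA (0.157 ± 0.137) and RAW_Mock (0.0810 ± 0.108), the last 2 within each other's spread. The first place of ASPC_Post for Nr4a3 rests on 1 cell, without which it was at 3.38 CPM, and by the mean of single-cell CPM RAW_LPS (9.85) was above ASPC_Post (7.89). Per kilobase of exon, Nr4a1 took 92.5% of the family's level in whole ASPC_Pre, 81.3% in ASPC_Post and 65.1% in IBA. Its share in whole IBA cells of batch 8_1 was 42.4% when not sampled, 53.4% at 1 h and 64.7% at 4 h. At 4 h, 1 cell gave 57.0% of the Nr4a1 counts. In IBA biopsies the share of Nr4a1 was 36.5%. Nr4a2 had the larger share in the cells not sampled (55.9%) and in the biopsies (63.5%). Among the biopsies, 1 gave 65.8% of the Nr4a1 counts and 1 gave 69.4% of the Nr4a2 counts, so these shares rest largely on single libraries.

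**Figure D3:**
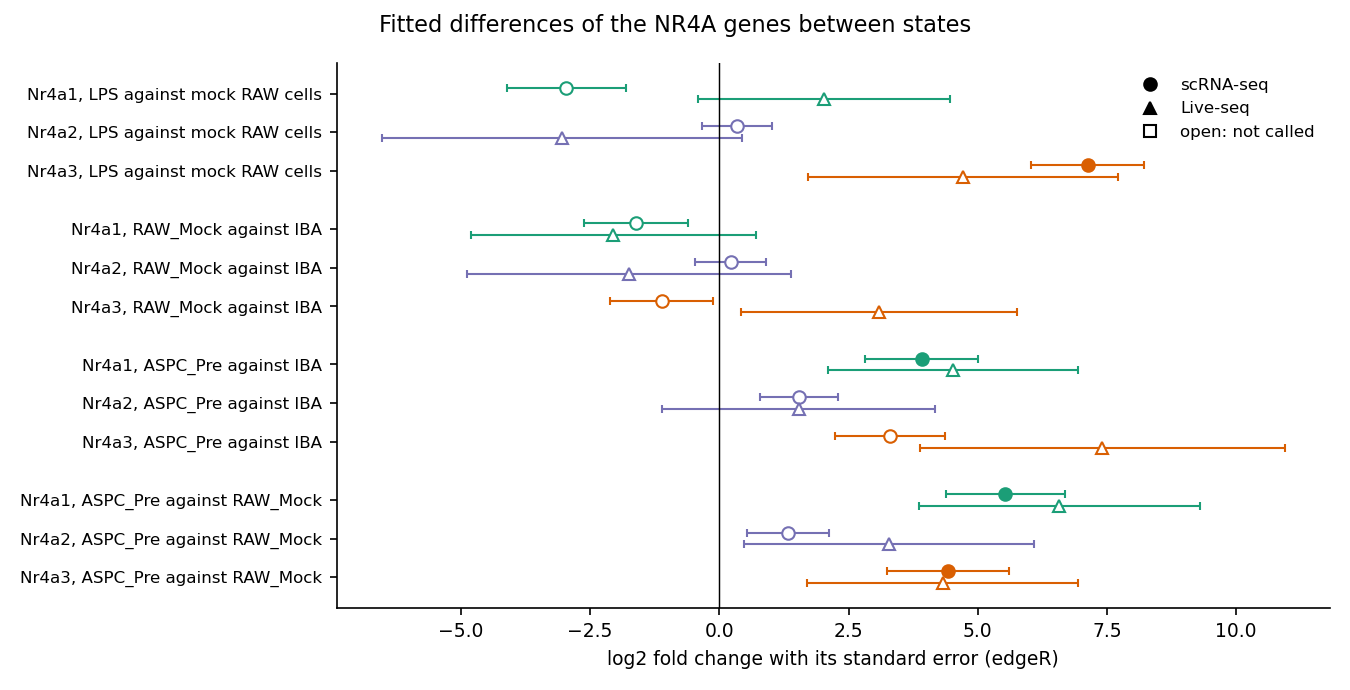
Log2 fold change of each NR4A gene with its standard error (horizontal axis) in 4 comparisons between states (vertical axis), by edgeR over sums; circles are scRNA-seq and triangles Live-seq, and filled symbols were called. The filled symbols are Nr4a3 with LPS, Nr4a1 in ASPC_Pre against IBA, and Nr4a1 and Nr4a3 in ASPC_Pre against RAW_Mock, all in scRNA-seq; the Live-seq error bars are the wider ones in every comparison.

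Other immediate-early genes also differed between ASPC_Pre and the lines. Against RAW_Mock, where 40.0% of all genes were called, 13 of 24 tested were higher and 2 lower in ASPC_Pre, with a list median of 2.41 against 0.28 over all genes; against IBA, where 11.2% were called, 5 were higher and 3 lower, with a median of 0.36 against 0.12. Of 28 tested other nuclear receptor genes, 17 were higher and 2 lower against RAW_Mock (median 2.11), and 5 were higher against IBA (median 0.52). Of 7 tested cAMP-responsive genes, 3 were higher against RAW_Mock, near the share over all genes, and 1 was lower against IBA, with list medians of 0.92 and 1.27.

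In ASPC biopsies Nr4a1 again took most of the family's level per kilobase, 91.7% in ASPC_Pre and 81.3% in ASPC_Post. In Live-seq, Nr4a1 was at 1498 CPM in ASPC_Pre of batch 8_8, where 12 of 18 biopsies held it and 1 gave 2239 of 6007 counts, and at 99.9 CPM in batch 9_4 (24 of 43 biopsies). In that batch 8_8 sum the 26 other immediate-early genes summed to 11355 CPM, against 1360 in ASPC_Pre of batch 9_4 and 2267 in whole ASPC_Pre of batch 8_8; the part of the low number of genes per biopsy in this was not tested. Nr4a2 was at 144.4 and 9.68 CPM in the 2 sums, with 516 of the 579 counts of batch 8_8 in 1 biopsy, and Nr4a3 at 11.7 and 2.45 CPM. No member was called against IBA, where 0.0223% of genes were, or against RAW_Mock, where 2.01% were: Nr4a1 had log2 differences of 4.53 ± 2.42 (adjusted p = 1) and 6.58 ± 2.72 (adjusted p = 0.326), the latter 15.98 without batch 8_8 (adjusted p = 0.759). Nr4a3 held no count in any of 44 Live-seq IBA biopsies, where 3 counts would be a level of 0.137 CPM. Live-seq ASPC_Pre, where 9 of 61 biopsies held a count, was at 4.32 CPM over all its biopsies, 31.5 times that level. The fitted log2 difference of Nr4a3 was 7.41 ± 3.53 and was not called. Between Live-seq RAW_Mock and IBA, with 2.27% of genes called, no member was called (adjusted p of 0.909, 0.951 and 0.780 for Nr4a1, Nr4a2 and Nr4a3).

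Set against whole cells of the same state, no member was called in Live-seq, nor was any gene (0% by edgeR in RAW_Mock, RAW_LPS, IBA and ASPC_Pre, with 618, 1132, 566 and 200 of 13563 genes at an unadjusted p under 0.05 and 130, 256, 141 and 71 called by DESeq2). The largest of the members' values was Nr4a1 in RAW_LPS, 5.98 ± 2.53 higher in Live-seq on the log2 scale (adjusted p = 0.442; 0.00139 with no filter on low counts), and 4.32 to 11.45 without each batch in turn. In RAW_Mock, Nr4a1 was 3.24 ± 2.20 higher in Live-seq with batch 8_8 and the difference was −9.10 without it. Whole ASPC_Pre held Nr4a1 in 71.7% of cells and biopsies in 59.0% (45.7 to 71.5), whole IBA in 24.2% and biopsies in 11.4% (3.79 to 24.6). These intervals pool libraries over batches and do not test a difference between techniques.

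The 2 days of adipogenic induction went with a higher summed level of Nr4a2 in both techniques. Each state has 1 sum per batch here, so the ratios carry no test. Their intervals take each read as independent, although PCR copies of 1 molecule could not be collapsed, and leave out the spread between cells. They are therefore too narrow. In whole cells of batch 9_1, Nr4a2 was at 30.3 CPM in ASPC_Post and 8.43 in ASPC_Pre, a ratio of 3.59 (3.05 to 4.24), and 21 of 35 against 22 of 44 cells held it. In Live-seq of batch 9_4 it was at 19.1 and 9.68 CPM, a ratio of 1.98 (1.62 to 2.42), with 12 of 37 and 10 of 43 biopsies. With the cell of most counts left out of each group, the ratios were 3.14 and 2.09. Among 9 ASPCs of batch 9_4 labelled as sampled both before and after induction, Nr4a2 was higher afterwards in 1 and lower in 3.

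Nr4a1 had smaller ratios with induction, and those of Nr4a3 rested largely on single cells. Nr4a1 was at 138.2 and 111.8 CPM in whole ASPC_Post and ASPC_Pre of batch 9_1 (ratio 1.24, 1.17 to 1.31) and at 124 and 99.9 CPM in Live-seq (1.24, 1.16 to 1.32), with ratios of 1.13 and 1.06 without the top cells. Nr4a3 was at 9.52 and 1.85 CPM in whole cells (5.15, 3.68 to 7.33), where 65.85% of the counts of ASPC_Post came from 1 cell and 13 of 35 against 8 of 44 cells held it. Without the top cell of each group the ratio was 2.66. In Live-seq it was at 20.4 and 2.45 CPM (8.32, 5.96 to 11.9), but 312 of 326 counts of ASPC_Post came from 1 biopsy, and without the top biopsy of each group the ratio was 0.637. All 3 members were found together in 10 of 35 whole ASPC_Post cells and 6 of 44 ASPC_Pre cells of batch 9_1.

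**Figure D4:**
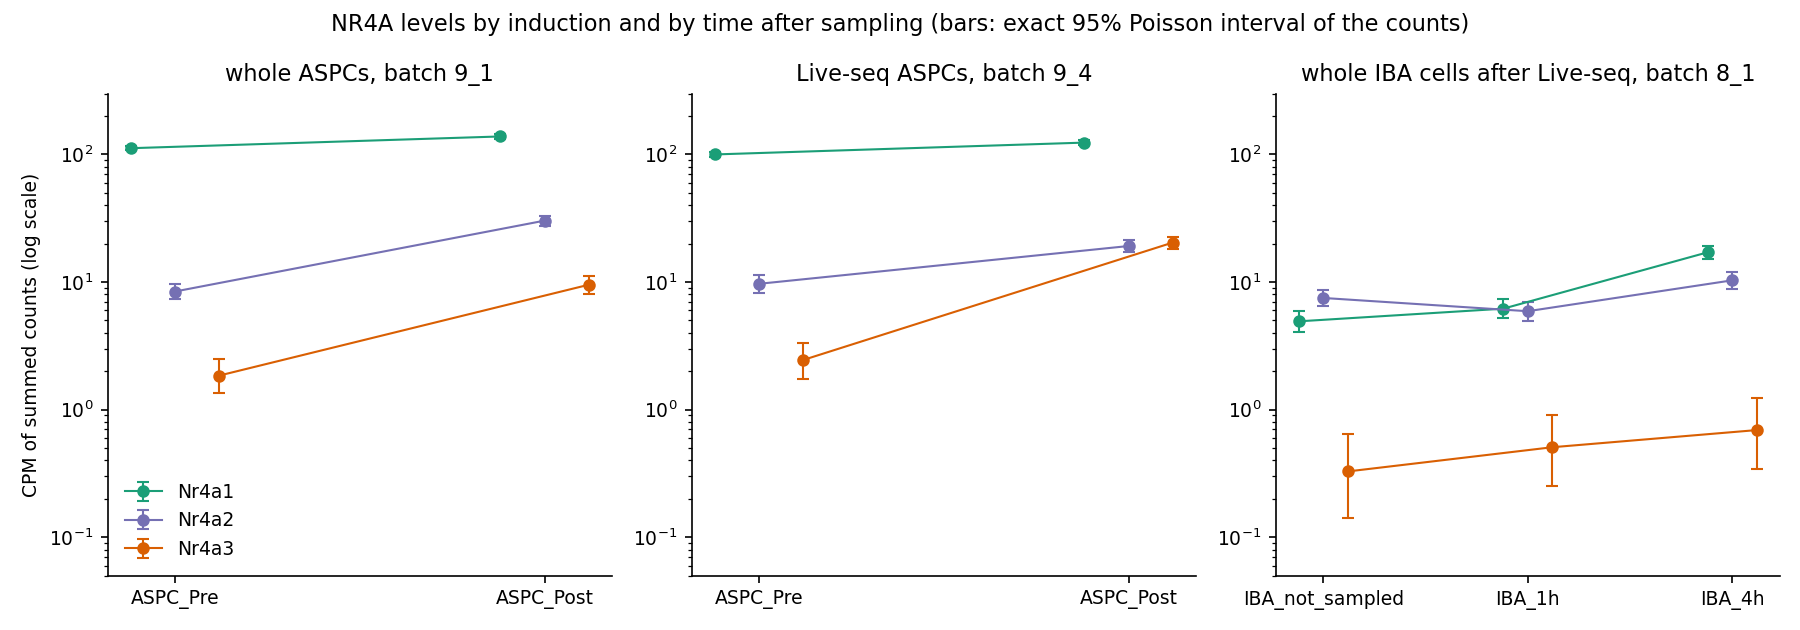
Level of the NR4A genes in CPM (vertical axis, logarithmic) before and after adipogenic induction in whole ASPCs (left) and ASPC biopsies (middle), and in whole IBA cells not sampled or collected 1 h or 4 h after a biopsy (right). Points are single sums and bars exact 95% Poisson intervals of their counts; Nr4a2 and Nr4a3 are higher in ASPC_Post in both techniques, the Live-seq Nr4a3 value through 1 biopsy (ratio 0.637 without the top biopsy of each group), and Nr4a1 is highest in the 4 h sum of IBA.

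Whole IBA cells collected after a biopsy were set beside cells not sampled, with 1 sum per time in 1 batch and so no test. Nr4a1 was at 4.92 CPM in 70 cells not sampled, 6.18 in 49 cells 1 h after sampling and 17.1 in 43 cells 4 h after, all of batch 8_1. The ratios to cells not sampled were 1.26 (0.975 to 1.62) and 3.48 (2.80 to 4.35), but 57.0% of the counts at 4 h came from 1 cell, and without the top cell of each group the ratio was 2.01. As with the ASPC ratios, these intervals leave out the spread between cells and are too narrow. The share of cells with Nr4a1 was 20.0% (11.4 to 31.3) in cells not sampled, 40.8% (27 to 55.79) at 1 h and 41.9% (27.01 to 57.87) at 4 h, and at 50000 counts a cell 10.2%, 19.3% and 24.0%. Nr4a2 was at 7.50, 5.90 and 10.3 CPM in the same order, with counts in 30.0%, 30.6% and 34.9% of cells. Nr4a3 was at 0.328, 0.507 and 0.692 CPM, with a count in 2 cells of each group. The other immediate-early genes summed to 2343, 2592 and 1596 CPM.

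Some cells are labelled as sampled by Live-seq before and after treatment. For 1 of the 4 RAW pairs both libraries carry the same order label, and the mock library was taken as the first. Of 4 RAW cells, none held a count of any member before LPS. Afterwards 1 cell held both Nr4a1 (152.1 CPM) and Nr4a2 (135.7 CPM), and none held Nr4a3. Of 9 labelled ASPC pairs, which is more than the study's text counts and whose barcodes were not analysed here, 4 held Nr4a1 before induction and 3 after, with 1 pair in both, and 3 held Nr4a2 before and 1 after. Nr4a3 was found in 1 of the 9 before and in none after.

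In LPS-treated whole RAW cells most cells with any member held 1 of the 3. Of 149 cells, 54 held none of the 3, 79 held 1, 15 held 2 and 1 held all 3. Nr4a2 was found in 15 of 86 cells with Nr4a3 (17.4%) and 7 of 63 without (11.1%), at median depths of 345582 and 361099 kept counts. The within-batch Spearman correlation of Nr4a3 and Nr4a2 was −0.13, 0.13 and 0.16 over the 15, 46 and 88 cells of batches 8_8, 9_1 and scRNA. With the named genes that rose with LPS, the values for Nr4a3 in batches 9_1 and scRNA were 0.27 and 0.26 for Maff, 0.21 and 0.20 for Pde4b and 0.13 and 0.265 for Gadd45b, and they differed in sign for Nfkb1 (−0.13 and 0.25) and Nfkbia (−0.09 and 0.25). In batch 8_8, with 1 Nr4a3 cell, they ran from −0.06 to 0.43. Cells of a batch share their library preparation, and values this weak in sparse counts are given as description. Nr4a1 was in 4 cells of 1 batch only. In Live-seq, RAW_LPS batches of 9 cells or more had at most 3 biopsies with any one member.

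The genes most like each member were named by rank. Over LPS-treated whole cells, among 12008 genes with a count in at least 10% of them, Nr4a3 ranked highest with Fabp3-ps1, Gm12096, Il15, Rpl27a-ps2 and Gm5350 (mean of 0.42 to 0.44), each through a value of 1.00 in batch 8_8, where 1 of 15 cells held Nr4a3. In a ranking chosen after these values were seen, of the 2 batches with at least 5 such cells, EGFP, the reporter fused to Rela, led (0.34 in batch 9_1 and 0.39 in batch scRNA; 0.37 in batch 8_8), followed by Sele, Rhof, Nfkbie and Irf1. EGFP itself had correlations of −0.16, −0.05 and −0.12 with depth in those 3 batches, and Nr4a3 had 0.30, −0.14 and −0.25. The part of depth in their correlation was not tested. Nr4a2 ranked highest with Gm5141, Gm45774, Akap11, Frs2 and Gcdh (0.385 to 0.422), with values of 0.54 to 0.89 in batch 8_8, where 3 of 15 cells held it, and 0.02 to 0.265 in batch scRNA. In batch scRNA alone, the one with at least 5 Nr4a2 cells, 5 other genes led: Prdm9, Ghdc, Gm9644, Gm4812 and Rfx5 (0.36 to 0.50). Nr4a1, over 1 batch with 4 cells, ranked highest with Depp1, Slc36a1, Fn1, Gm26530 and Alas2 (0.47 to 0.57).

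Over the 12 whole-cell sums, which share batches and differ in depth, the Spearman correlation of log2(CPM + 1) was 0.34 between Nr4a1 and Nr4a2, 0.36 between Nr4a2 and Nr4a3, and −0.10 between Nr4a1 and Nr4a3. The genes nearest to Nr4a1 were Ccng1, Nek7, Inka2, Apba1 and Il6st (0.96 to 0.98). Nearest to Nr4a2 were Hps5, Dhx57, Ywhag, Dennd5a and Pbxip1 (0.85 to 0.90), and nearest to Nr4a3 were Rpap2, Gbp5, Tut7, Gpcpd1 and Sppl2a (0.91 to 0.94). No member was among the 5 genes nearest to another.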

How the data were processed

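Smart-seq2 libraries of single cells were sequenced, and read 1 was aligned by the authors with STAR 2.6.1c (after bcl2fastq 2.19.1) to GRCm38 with Ensembl 87 genes and counted with HTSeq without strand; the deposited values are raw read counts per gene, with no molecular identifiers. No column of another series was present. Here library sizes and tests excluded 20 genes named as negative controls and 91 that encode ribosomal proteins, and counts were summed per technique, state and batch with at least 3 cells (12 scRNA-seq and 15 Live-seq sums); the single wild-type RAW_Mock biopsy of batch 5Reseq stayed out of the fits. Batches are the replicates. Nothing states that they are separate cultures or animals throughout. The p-values measure the spread between sums that the terms of the fit leave, with 1 estimate shared by all states.

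Genes with at least 2 counts in 15% of the cells of 1 whole-cell state, and past edgeR's own expression filter, were tested with edgeR 4.0.16 (TMM, quasi-likelihood test, state and batch as terms; no batch term between techniques, which share batch 8_8 alone), with Benjamini-Hochberg adjustment over all genes, and called at FDR 0.05 and a log2 change of 1. DESeq2 1.42.0, other size factors, no filter, thinning to 50000 counts, no batch term and leaving out each batch were alternatives. The fit was tested on simulated data. Intervals are exact at 95%. Those of levels and ratios take each read as independent, as does the floor of 3 counts, and do not cover PCR copies or the spread between cells. Those of shares take each cell as independent and do not cover the spread between batches. Shares after thinning leave out 6 shallower cells. Batch labels mark a shared batch: sums of 1 batch deviated together in scRNA-seq (median correlation 0.222, 0.0822 to 0.432, over 15 pairs) and less so in Live-seq (0.0267, −0.0355 to 0.245, 16 pairs). The members and gene lists were chosen with earlier results of these data known. Named were the 3 members, up to 4 called genes per list with LPS, and the 5 genes most like each member. Promoter sequences are from RefSeq (GRCm38.p6) and coordinates from GENCODE vM21; all 3 members matched.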

Additional observations from a re-analysis of the deposited data

Results flagged for a closer look

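In 6 groups of 4 or 5 Live-seq sums, a sum that stood apart from the rest by Dixon's criterion was found 5 times. Chance gives about 1 in 20 groups of normally spread values, a rate that does not apply here, since most of the other sums were at or near 0. Nr4a1 was at 121.5 CPM in RAW_Mock of batch 8_8 against 0 in the other batches. In the same sum Nr4a2 was at 56.92 CPM and Nr4a3 at 1.659 CPM. Nr4a2 was at 10.06 CPM in RAW_LPS of batch 7, with 99 of 100 counts in 1 biopsy. Nr4a3 was at 205.6 CPM in RAW_LPS of batch 6, in 2 of 4 biopsies.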

How the results depend on the processing

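Values are log2 differences unless named otherwise. Leaving out each batch in turn moved the scRNA-seq differences of Nr4a3 with LPS over 6.61 to 8.29, of Nr4a1 in ASPC_Pre over 2.67 to 5.23 against IBA and 5.02 to 5.70 against RAW_Mock, of Nr4a3 in ASPC_Pre over −1.66 to 3.68 against IBA and −1.42 to 5.21 against RAW_Mock, and of Nr4a2 in RAW_Mock against IBA over −0.23 to 1.02. In Live-seq it moved Nr4a2 with LPS over −8.21 to 2.999, and RAW_Mock against IBA over −11.14 to 0.59 for Nr4a1, −7.77 to 0.55 for Nr4a2 and −2.24 to 4.27 for Nr4a3. The LPS response between techniques moved over −2.94 to 9.73 for Nr4a2 and −3.95 to 4.62 for Nr4a3. Live-seq against scRNA-seq moved over −9.10 to 4.10, −3.67 to 2.05 and −3.97 to 3.64 for Nr4a1, Nr4a2 and Nr4a3 in RAW_Mock, and over −2.12 to 2.49 for Nr4a3 in RAW_LPS. Batch 8_8, 9_1, 9_4 or 6 decided each reversal; fits without a batch hold fewer sums.

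Without the replicate block (the batch term), Nr4a3 with LPS in scRNA-seq was 6.52, Nr4a1 in ASPC_Pre against IBA 3.72, and Nr4a3 in ASPC_Pre against RAW_Mock 3.61 (adjusted p = 0.0639), none of them called, and Nr4a1 in Live-seq RAW_Mock against IBA turned to 1.27. With the replicate block, Nr4a3 in Live-seq against scRNA-seq IBA turned to 1.24. The block changed no other call.

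Nr4a1 in ASPC_Pre against IBA was 3.90 with other size factors and 3.81 with the left-out genes kept, no longer called. Thinned cells gave −0.17 for Nr4a2 and 0.61 for Nr4a3 in scRNA-seq RAW_Mock against IBA, and called Nr4a1 in Live-seq ASPC_Pre against RAW_Mock at 5.04. The newer edgeR fit called Nr4a3 in ASPC_Pre against IBA at 3.65, no filter called Nr4a1 in Live-seq against scRNA-seq RAW_LPS at 5.98, and DESeq2 called Nr4a3 in Live-seq against scRNA-seq IBA at −17.05, where all Live-seq sums are 0 and the size depends on the fit. Without the top cell of each group, chosen after seeing the data, ASPC_Post over ASPC_Pre had ratios of 1.13 and 1.06 for Nr4a1 in scRNA-seq and Live-seq and 2.66 and 0.637 for Nr4a3. IBA 4 h over not sampled was 2.01 for Nr4a1. IBA 1 h over not sampled was 4.5 for Nr4a3, from 11 and 8 counts with 7 in the top cell of each group. Its reference of 0.0417 CPM lies below the 0.123 CPM that 3 counts would give, so that ratio cannot be read as a size. The cause of these shifts was not tested.

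Genes called with LPS in scRNA-seq numbered 125 higher and 42 lower, against a total of 35 without the batch term, 253 without a filter, 410 with the newer edgeR fit, 435 with thinned cells and 713 with DESeq2. For ASPC_Pre against IBA in scRNA-seq they numbered 1514, against 950 without the batch term and 2627 with the newer edgeR fit. In Live-seq, RAW_Mock against IBA gave 305 (1482 with DESeq2, 718 with the newer fit, 683 thinned, 661 without the batch term), ASPC_Pre against RAW_Mock 270 (1386, 700, 701 and 598) and ASPC_Pre against IBA 3 (276, 8, 55 and 11). LPS in Live-seq, with none, gave 28 with thinned cells. Live-seq against scRNA-seq, with none, gave 22, 60, 52 and 1 without a filter in RAW_Mock, RAW_LPS, IBA and ASPC_Pre, and 5 with the batch term in RAW_LPS.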
